A study of Mus musculus with 13 samples.

Results

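Extracellular matrix and integrin genes were examined in CGR8 mouse embryonic stem (ES) cells grown with the G-quadruplex (G4) ligand PhenDC3. The set was a list of 42 symbols for fibulins, elastic fibre proteins, collagens, basement membrane proteins, adhesive proteins, crosslinking enzymes, integrins, matrix proteases and their inhibitors. It was drawn up because Fbln5 rose strongly in these data, so the rise of Fbln5 is given as a description with no test. Symbols with fewer than 30 counts summed over the 6 RNA-seq libraries were dropped, which left 38 genes of the 24079 in the count table. The 4 dropped symbols were Col6a1 with 26 summed counts, Tnc with 12, Lox with 11 and Col3a1 with 10. The lowest genes that stayed were Eln with 70, Col1a2 with 86 and Col6a2 with 97.

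CGR8 is a single ES line, kept here without feeder cells on gelatin, with leukemia inhibitory factor and serum. All cultures were asynchronous and received 0.5% DMSO for 48 h, alone in the control (DMSO, 3 RNA-seq libraries) or with 10 μM PhenDC3 (PhenDC3, 3 RNA-seq libraries). PhenDC3 is a bisquinolinium compound that binds G4, the stacked quadruplex structures that G-rich DNA can fold into. Replication origins in cells grown the same way had been mapped by sequencing short nascent strands (SNS-seq), as peak lists for 3 DMSO and 2 PhenDC3 replicates.

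The extracellular matrix is the protein network that cells secrete and attach to. Basement membranes are thin sheets of it, in which laminin trimers and a collagen IV network are linked by nidogens and the heparan sulfate proteoglycans perlecan and agrin. In the early mouse embryo the parietal endoderm lays down the thick Reichert's membrane from these proteins. Elastic fibres are made of elastin on a scaffold of fibrillin microfibrils, and fibulins help to assemble them. Integrins are paired α and β receptors that bind matrix proteins at the cell surface, the β1 chain with many α chains and the αv chain with several β chains.

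The 6 RNA-seq libraries held 22232014 to 29486502 counts. The 45S pre-ribosomal RNA gene Rn45s took 2.55% to 5.70% of the counts in DMSO and 0.172% to 1.43% in PhenDC3, and its part in the results was not tested. Among markers of other cells a culture could hold, 7 of 10 genes of primitive and parietal endoderm rose and none fell. The shares over all genes tested were 18.0% and 18.7%. Dab2, Sox7 and Cited1 did not pass the test. Thbd, among those that rose, was low, with means of 11.5 normalized counts in DMSO and 48.2 in PhenDC3. The summed level of the 10 endoderm genes was 1456 to 3148 normalized counts in DMSO and 2966 to 4691 in PhenDC3. Dab2 gave the largest part of it (means 1179 and 1360). The fibroblast markers Dpt, Dcn and Lum had no count in any library, while Vim and Thy1 fell. The summed level of the 12 fibroblast and mesenchyme genes was 3964 to 5118 in DMSO against 1664 to 2151 in PhenDC3, most of it from Vim (means 4213 and 1592). Of the others, Pdgfrb had means of 56.7 and 73.9 and Acta2 of 50.6 and 134, and neither passed the test. All 10 ES cell markers were expressed in all libraries, of which 4 rose and 3 fell. In whole cultures, fewer cells of a type and less RNA per cell cannot be told apart.

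The promoters of 2 genes had SNS-seq peaks in both PhenDC3 lists and none in any DMSO list, beside 1.66% of the tested genes. They were Fbln5, which codes for the elastic fibre protein fibulin-5, and Thbs1, which codes for the adhesive protein thrombospondin-1. Their G-rich stretches are printed first, since both lie beside such a peak. The Fbln5 sequence is chr12:101820968-101821200 of GRCm38 (mm10), plus strand, at -2081 to -1849 bases from the start site of the gene, where negative positions are upstream. It runs from the first of the G4 predicted there to the end of the peak of PhenDC3 replicate 2, and the gene itself lies on the minus strand. The Thbs1 stretch is chr2:118111798-118111851, minus strand, at -78 to -25 bases from the start site of a gene on the plus strand. Capitals mark runs of at least 3 G.
Fbln5 upstream region: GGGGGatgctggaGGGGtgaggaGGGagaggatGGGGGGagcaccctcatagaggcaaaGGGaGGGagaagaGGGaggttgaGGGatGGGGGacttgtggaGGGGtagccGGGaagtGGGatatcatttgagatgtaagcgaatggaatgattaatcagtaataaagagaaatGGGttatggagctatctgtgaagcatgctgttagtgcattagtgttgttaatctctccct
Thbs1 stretch: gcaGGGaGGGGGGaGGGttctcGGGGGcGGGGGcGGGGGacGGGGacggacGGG

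Another 5 genes, Agrn, Col4a2, Lamc1, Nid1 and Sparc, had a promoter peak in all 5 lists, beside 12.8% of the tested genes. Among these, Nid1 had no predicted G4 in its promoter. One stretch each of Col4a2 and Lamc1 is shown for comparison with the pair above. The Col4a2 stretch is chr8:11312469-11312494 (plus strand) and the Lamc1 stretch chr1:153333195-153333233 (plus strand).
Col4a2 stretch: GGGGtgcaGGGaGGGaggctGGGGag
Lamc1 stretch: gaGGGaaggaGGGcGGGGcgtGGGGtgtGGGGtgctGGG

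Expression was compared first, by edgeR's quasi-likelihood test over the 13972 genes tested, with Benjamini-Hochberg adjustment over all of them and a threshold of 0.05 on the adjusted p. All 38 genes passed the filter on low counts. Fbln5 passed only through the PhenDC3 libraries, and Col1a2 and Col5a2 had all 3 PhenDC3 libraries but not all DMSO libraries over the filter's level, with the reverse for Col6a2. Of the 37 genes other than Fbln5, 13 rose and 5 fell, and 19 did not pass the test. Over all genes tested 18.0% rose and 18.7% fell. The conditions did not overlap in 50.6% of all genes tested, 3494 genes with PhenDC3 higher and 3578 with PhenDC3 lower. The median log2 fold change of the 37 genes was 0.35, beside 0.0096 over all genes tested. Without Col1a2, Col5a2 and Col6a2, 12 of 34 genes rose and 5 fell, with a median of 0.33. The genes that rose were 6 of the 11 of basement membranes, with Fbln2, Fbn1, Col5a2, Sparc, Spp1, Itgav and Timp2. The genes that fell were Fbln1, the integrins Itga5 and Itgb1, and the proteases Mmp2 and Mmp14.

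**Figure D1:**
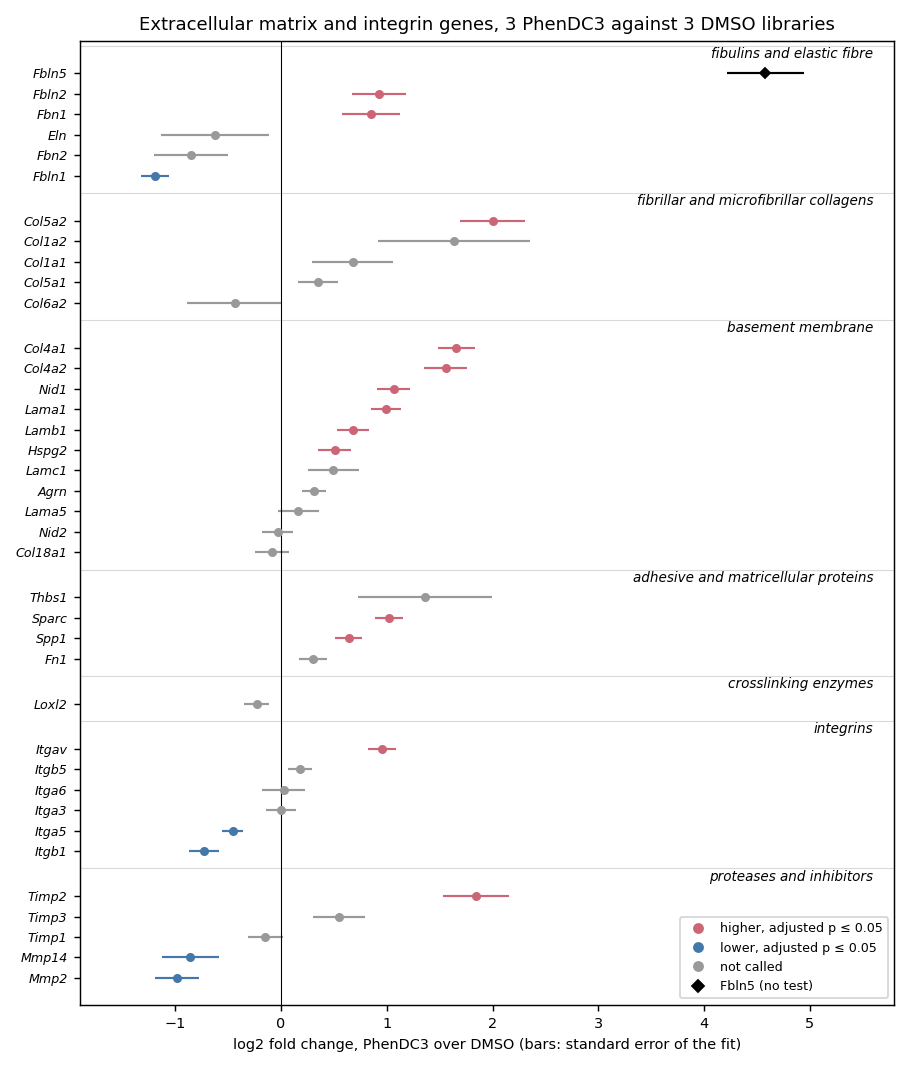
Log2 fold change of PhenDC3 over DMSO for the 38 genes, grouped by role, with the standard error of the fit over 3 libraries per condition; colours mark genes past an adjusted p of 0.05 and the diamond marks Fbln5, which has no test. The genes that rose lie between 0.51 and 2.00, and those that fell lie between -1.20 and -0.46.

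Fibulin-5 (Fbln5, Entrez 23876, chr12:101746565-101819119, minus strand) binds elastin and cell-surface integrins. It had 2.77, 3.49 and 2.2 normalized counts in DMSO and 72.5, 81.0 and 56.5 in PhenDC3. These rest on 8 reads in all in DMSO and 219 in PhenDC3. Their ratio, scaled for library size, was 24.8 with a 95% exact interval of 12.4 to 58.1, which covers counting error only. The gene had the lowest level per length of the 38 in DMSO, at 0.0180 ± 0.0041 (SD, n = 3) RPKM (reads per kb of exon, scaled to the size of the library), and reached 0.447 ± 0.0796 in PhenDC3. That level was still below the level in DMSO of 29 genes of the set.

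Other fibulins moved in different directions. Fbln1, whose product fibulin-1 is found in elastic fibres and basement membranes, had 528, 494 and 515 normalized counts in DMSO and 239.7, 230.3 and 201 in PhenDC3. Every PhenDC3 library was below every DMSO library, and the log2 fold change was -1.20 ± 0.13 (SE, adjusted p = 0.000286). Fbln2, a fibulin of basement membranes and elastic fibres, had 34.1, 27.9 and 36.4 in DMSO and 65.4, 50.1 and 72.2 in PhenDC3, a rise of 0.93 ± 0.25 on the log2 scale (adjusted p = 0.0196). The libraries did not overlap, yet the call was lost without DMSO replicate 1 (adjusted p = 0.0537), DMSO replicate 2 (0.0587), PhenDC3 replicate 1 (0.0733) or PhenDC3 replicate 3 (0.0759).

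Fibrillin-1 (Fbn1), the main microfibril protein, had 59.1, 33.7 and 54.0 normalized counts in DMSO and 92.9, 68.2 and 105 in PhenDC3 (log2 fold change 0.85 ± 0.28, adjusted p = 0.0391). This call too was lost without DMSO replicate 1 (adjusted p = 0.0543), DMSO replicate 2 (0.0990), PhenDC3 replicate 1 (0.114) or PhenDC3 replicate 3 (0.130). Fbn2, a fibrillin of developing tissues, had a log2 fold change of -0.85 ± 0.35 and elastin (Eln) one of -0.62 ± 0.51, and neither passed the test (adjusted p = 0.0860 and 0.362). Elastin was low everywhere, with 5.51 to 20.9 normalized counts in DMSO and 7.08 to 11.7 in PhenDC3. Among 11 tested relatives of these proteins, 3 rose and 3 fell, beside 18.0% and 18.7% over all genes tested. Efemp2, coding for fibulin-4, had a log2 fold change of 1.38 ± 0.21 (adjusted p = 0.00143), and the microfibril-associated Mfap5 one of -0.92 ± 0.23 (adjusted p = 0.0127).

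The basement membrane genes were the group with the most rises, 6 of 11, and none fell, beside 18.0% and 18.7% over all genes tested. Col4a1 and Col4a2 code for the chains that form the main collagen IV trimer. Col4a1 (chr8:11198423-11312826) had 5566, 4654 and 6551 normalized counts in DMSO and 18104, 14144 and 20567 in PhenDC3, a log2 fold change of 1.65 ± 0.17 (adjusted p = 0.000237). Col4a2 had 2580.2, 2276 and 3067 in DMSO and 8045, 5599.7 and 9652 in PhenDC3, a log2 fold change of 1.56 ± 0.20 (adjusted p = 0.000641). For both, the lowest PhenDC3 library was above the highest DMSO library. The genes lie head to head on chromosome 8, and their outermost annotated first exons overlap by 22 bases. The ratio of Col4a1 to Col4a2 per length was 2.05 ± 0.0580 (SD, n = 3) in DMSO and 2.24 ± 0.197 in PhenDC3.

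Laminin-111, the first laminin of the embryo, is a trimer of the products of Lama1, Lamb1 and Lamc1. Lama1 (chr17:67697265-67822645) had 6114, 4973 and 5925 normalized counts in DMSO and 11632, 9539 and 12670.5 in PhenDC3, a rise of 0.99 ± 0.14 (adjusted p = 0.000944). Lamb1 had 5871, 4531 and 6439.9 in DMSO and 9451, 7889 and 9668 in PhenDC3, a rise of 0.68 ± 0.15 (adjusted p = 0.00814). Neither gene overlapped between the conditions. Lamc1, the γ1 chain shared by most laminins, varied more, with 11711, 8503 and 14428 in DMSO and 16944, 11295 and 20513 in PhenDC3. Its log2 fold change of 0.49 ± 0.24 did not pass the test (adjusted p = 0.139), and did without PhenDC3 replicate 2 (adjusted p = 0.0340). Lama5, the α chain of a laminin of later basement membranes, had a log2 fold change of 0.16 ± 0.19 (adjusted p = 0.540). Per length, Lama1 was 1.12 ± 0.442 times Lama5 in DMSO and 1.87 ± 0.415 times in PhenDC3, and the libraries overlapped.

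Nidogens bridge laminin and collagen IV. Nid1 had 2889, 2389.9 and 3422 normalized counts in DMSO and 5815, 5472 and 6917 in PhenDC3, a log2 fold change of 1.06 ± 0.16 (adjusted p = 0.00109). Nid2 had 12155, 10368 and 14790.1 in DMSO and 11969.5, 11179 and 13362 in PhenDC3, a log2 fold change of -0.03 ± 0.15 (adjusted p = 0.887). The ratio of Nid1 to Nid2 per length was 0.188 ± 0.00319 in DMSO and 0.402 ± 0.0141 in PhenDC3. Nid2 shares 7.90% of its exon bases with the antisense gene 2700060E02Rik, and the strand setting of the counting is not given in the sources used here.

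Perlecan (Hspg2) had 6892, 10276 and 9985 normalized counts in DMSO and 13247, 11819 and 13508 in PhenDC3 (log2 fold change 0.51 ± 0.16, adjusted p = 0.0345). The call was lost without DMSO replicate 1 (0.34, adjusted p = 0.0820), PhenDC3 replicate 1 (adjusted p = 0.108) or PhenDC3 replicate 3 (adjusted p = 0.0982). Agrin (Agrn) had 7055 to 8517 in DMSO and 9279 to 10042 in PhenDC3, with no overlap. Its log2 fold change of 0.31 ± 0.11 fell short of the threshold (adjusted p = 0.0568), and passed it by DESeq2 (adjusted p = 0.0439) and without DMSO replicate 2 (adjusted p = 0.0489). Col18a1, the core protein of another basement membrane proteoglycan, had a log2 fold change of -0.08 ± 0.16 (adjusted p = 0.717). The endoderm markers that rose beside these genes included Gata4 (1.01 ± 0.22, adjusted p = 0.00788), Gata6 (0.85 ± 0.28, adjusted p = 0.0435), Sox17 (0.98 ± 0.23, adjusted p = 0.00959) and Foxa2 (1.44 ± 0.25, adjusted p = 0.00273). Thbd, a surface protein of parietal endoderm, rose by 2.05 ± 0.38. Only 2 of its 3 DMSO libraries, but all PhenDC3 libraries, were over the filter's level. The part of these markers in the basement membrane result was not tested.

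Of 12 other tested basement membrane genes, 4 rose and 4 fell, beside 18.0% and 18.7% over all genes tested. The falls included Frem2, which anchors epithelium to the matrix beneath it (169, 171 and 277 normalized counts in DMSO against 61.0, 34.1 and 49.1 in PhenDC3, log2 fold change -2.08 ± 0.29, adjusted p = 0.000821), and Ntn1, coding for the laminin-related netrin-1 (1758, 1745 and 1962 against 514, 291 and 560.03, log2 fold change -1.998 ± 0.22, adjusted p = 0.000267). The rises included the integrin ligand nephronectin, Npnt (1.39 ± 0.22, adjusted p = 0.00182).

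**Figure D2:**
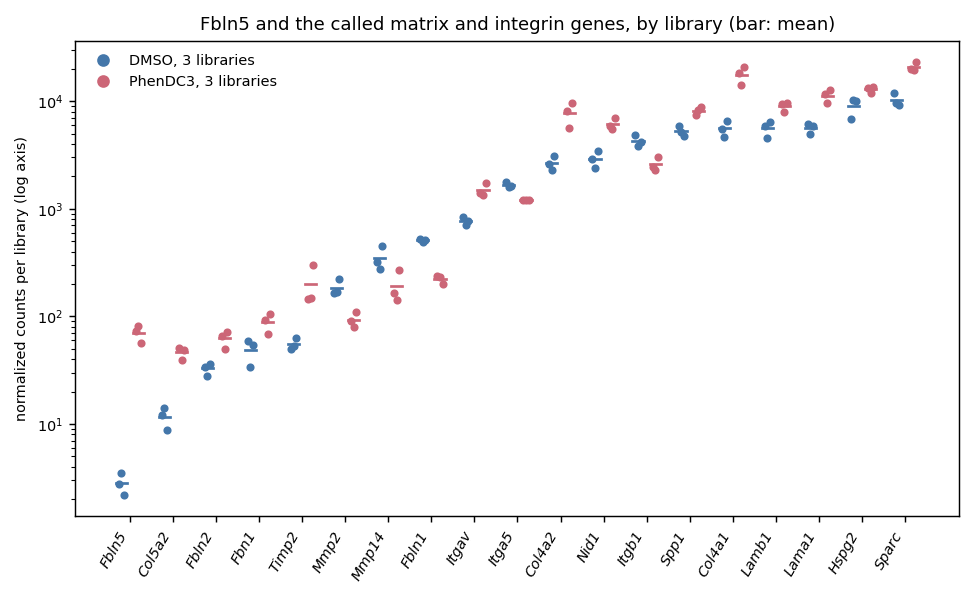
Normalized counts of each RNA-seq library on a log axis for Fbln5 and the 18 genes past the threshold, in the order of their DMSO mean, with bars at the means of 3 libraries. The conditions do not overlap for any of these genes, as for 50.6% of all genes tested, and levels run from 2.2 for Fbln5 in a DMSO library to 22938 for Sparc in a PhenDC3 library.

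The fibrillar collagens were low in these cells. Col5a2, the α2 chain of collagen V, which starts collagen fibrils, had 11.997, 13.9 and 8.82 normalized counts in DMSO and 51.3, 39.4 and 49.1 in PhenDC3. Its log2 fold change was 2.00 ± 0.31, and it passed the filter on low counts through the PhenDC3 libraries, with 2 of 3 DMSO libraries over the filter's level. Its partner chain Col5a1 was more abundant, at 288 to 398 in DMSO and 334 to 483 in PhenDC3, and its log2 fold change of 0.35 ± 0.19 did not pass the test (adjusted p = 0.168). The collagen I chain Col1a2 had 4.61, 2.32 and 13.2 in DMSO and 12.4, 9.60 and 40.7 in PhenDC3, with replicate 3 the highest in both conditions. Its log2 fold change of 1.64 ± 0.72 had an adjusted p of 0.105, and of 0.0436 without DMSO replicate 3. Col1a1 (0.68 ± 0.38, adjusted p = 0.193) and the collagen VI chain Col6a2 (-0.44 ± 0.45, adjusted p = 0.475) did not pass the test.

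Among 19 other tested collagen genes, 5 rose and 4 fell, beside 18.0% and 18.7% over all genes tested. The fibrillar chain Col11a1 had 126, 91.8 and 105 normalized counts in DMSO and 453, 448 and 531 in PhenDC3 (log2 fold change 2.14 ± 0.17, adjusted p = 8.29e-05). Col20a1, a collagen that associates with fibrils, had 7.38, 39.5 and 13.2 in DMSO and 113, 179 and 109 in PhenDC3 (2.77 ± 0.50), with 2 of 3 DMSO libraries and all PhenDC3 libraries over the filter's level. The network-forming Col8a2 moved the other way, from 64.6, 48.8 and 49.6 to 1.77, 7.46 and 7.41 (-3.30 ± 0.43), with only its DMSO libraries over the filter's level. Of 18 tested genes for collagen synthesis and crosslinking, 7 rose and 5 fell. The rises included the collagen chaperone Serpinh1 (0.83 ± 0.26, adjusted p = 0.0322), the prolyl hydroxylase subunit P4ha2 (0.99 ± 0.18, adjusted p = 0.00287) and the lysyl hydroxylase Plod2 (0.95 ± 0.13, adjusted p = 0.000858). The falls included Pcolce, an enhancer of procollagen processing (-1.11 ± 0.11, adjusted p = 0.000199). The crosslinking enzyme Loxl2 of the set had a log2 fold change of -0.23 ± 0.12 (adjusted p = 0.153), while its relative Loxl3 rose by 1.54 ± 0.28 (adjusted p = 0.00311).

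The genes with the highest level per length in DMSO were Sparc (151 ± 21.3 RPKM, SD, n = 3), Spp1 (124 ± 14.0), Nid2 (99.9 ± 17.9), Fn1 (90.4 ± 13.8) and Col18a1 (63.8 ± 14.3). The ranges of 1 SD around these means overlapped for all neighbours in this order. Sparc codes for a collagen-binding matricellular protein. It had 11834, 9607 and 9152 normalized counts in DMSO and 19742, 19375 and 22938 in PhenDC3, a rise of 1.02 ± 0.13 on the log2 scale (adjusted p = 0.000688). Spp1, the integrin ligand osteopontin, had 5892, 5159 and 4724 in DMSO and 7446, 8325 and 8783 in PhenDC3 (0.64 ± 0.12, adjusted p = 0.00435). The conditions did not overlap for either gene.

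Fibronectin (Fn1), the main ligand of the α5β1 integrin, had 18297, 17182 and 22772 normalized counts in DMSO and 23621, 22036 and 26099 in PhenDC3. The conditions overlapped, and its log2 fold change was 0.30 ± 0.13 (adjusted p = 0.110), or adjusted p = 0.0258 without DMSO replicate 3. Thbs1 had 84.0, 95.3 and 299 in DMSO and 221, 216 and 786 in PhenDC3, with replicate 3 the highest in both conditions. Its log2 fold change of 1.36 ± 0.63 had an adjusted p of 0.124, and of 0.0327 without DMSO replicate 3. With replicate number as a block in the fit, a pairing that is not sure, the adjusted p was 1.41e-06. Among 26 other tested proteoglycans and matrix proteins, 9 rose and 9 fell, beside 18.0% and 18.7% over all genes tested. Matn1, a matrilin known from cartilage, had 6.46, 4.65 and 8.82 in DMSO and 51.3, 69.3 and 50.9 in PhenDC3 (3.07 ± 0.34), with only its PhenDC3 libraries over the filter's level, while Matn3 of the same family fell by 1.82 ± 0.32 on the log2 scale (adjusted p = 0.00261). The adhesive protein Tgfbi had 163, 164 and 117 in DMSO and 29.2, 40.5 and 31.5 in PhenDC3 (-2.14 ± 0.24, adjusted p = 0.000303).

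Integrin chains changed unequally. Itgb1, the β1 chain, had the highest level per length of the integrin genes of the set in DMSO, 40.2 ± 4.97 RPKM. In PhenDC3 it was at 24.3 ± 3.65 and Itga6 at 30.8 ± 7.21. It had 4893, 3869.6 and 4132 normalized counts in DMSO and 2469, 2290.2 and 3038 in PhenDC3, a log2 fold change of -0.73 ± 0.14 (adjusted p = 0.00464). Itga5, which pairs with β1 as the fibronectin receptor, had 1777, 1577 and 1612 in DMSO and 1204, 1194 and 1218 in PhenDC3 (-0.46 ± 0.10, adjusted p = 0.00806). Itgav, whose αv chain pairs with several β chains in receptors for RGD-containing ligands, had 833, 713 and 772 in DMSO and 1409, 1340.2 and 1741 in PhenDC3 (0.95 ± 0.13, adjusted p = 0.000873). None of these 3 genes overlapped between the conditions.

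The ratio of Itgav to Itgb1 per length was 0.107 ± 0.00525 (SD, n = 3) in DMSO and 0.343 ± 0.00465 in PhenDC3. The ratio of Itga5 to Itgav was 3.39 ± 0.100 in DMSO and 1.29 ± 0.160 in PhenDC3. Both sets of values were far apart beside their spread between libraries, and they are descriptions of ratios chosen with the fold changes known. The laminin-binding chains Itga6 (0.03 ± 0.20, adjusted p = 0.935) and Itga3 (0.0027 ± 0.14, adjusted p = 0.991) did not pass the test. Nor did Itgb5, a partner of αv, whose PhenDC3 libraries of 735 to 860.4 normalized counts were all above the DMSO libraries of 678 to 731 (0.18 ± 0.11, adjusted p = 0.245).

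**Figure D3:**
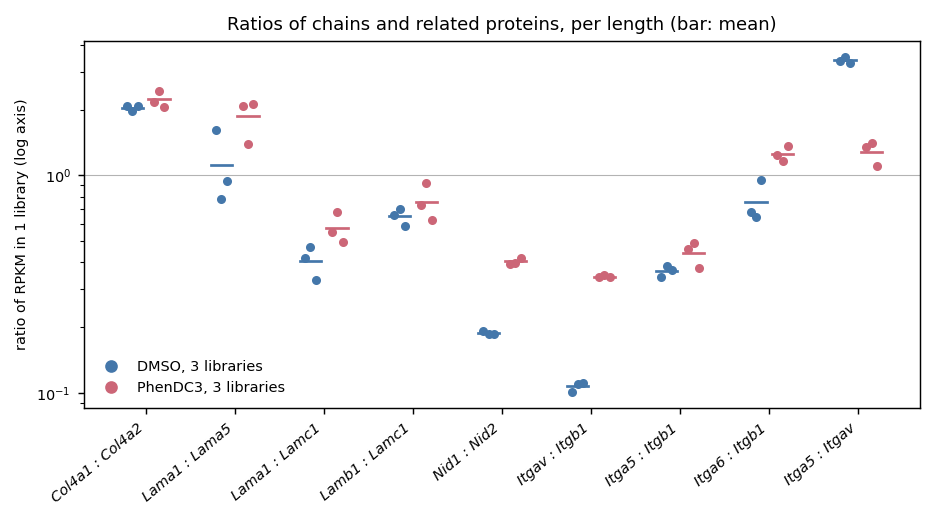
Ratio of the RPKM of 2 genes within each RNA-seq library on a log axis, for 9 pairs of chains or related proteins, with bars at the means of 3 libraries per condition. Nid1 : Nid2, Itgav : Itgb1 and Itga5 : Itgav separate the conditions widely, while Col4a1 : Col4a2 stays between 1.99 and 2.46 in all 6 libraries.

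Beside 18.0% and 18.7% over all genes tested, 5 of 13 other tested integrin genes rose and 3 fell. They included Itgb3, another partner of αv (1.39 ± 0.21, adjusted p = 0.00129), and the laminin receptor chain Itgb4 (1.30 ± 0.16, adjusted p = 0.000476) among the rises, and Itgb7 (-1.46 ± 0.14, adjusted p = 0.000144) among the falls. Of 17 integrin adaptors, which tie the receptors to actin, 4 rose and 1 fell. Tensin-1 (Tns1) had 436, 395 and 442 normalized counts in DMSO and 1672, 1587 and 1219 in PhenDC3 (1.81 ± 0.14, adjusted p = 8.29e-05).

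Mmp2 and Mmp14, the only matrix proteases of the set, fell, and of their inhibitors 1 of 3 rose. Mmp2, a gelatinase that degrades collagen IV, had 166, 167 and 220.5 normalized counts in DMSO and 90.2, 78.9 and 110.2 in PhenDC3 (-0.98 ± 0.21, adjusted p = 0.00605). Mmp14, the membrane protease that activates pro-MMP2, had 323, 278 and 446 in DMSO and 166, 141 and 270.3 in PhenDC3 (-0.86 ± 0.27, adjusted p = 0.0334). The conditions did not overlap for either gene, but the call of Mmp14 was lost without DMSO replicate 1 (adjusted p = 0.0705), DMSO replicate 3 (0.0858), PhenDC3 replicate 1 (0.116) or PhenDC3 replicate 2 (0.0893).

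Timp2, an inhibitor of MMP2 that also takes part in its activation, had 49.8, 53.5 and 62.8 normalized counts in DMSO and 144, 149 and 303 in PhenDC3 (1.84 ± 0.32, adjusted p = 0.00239). Replicate 3 was the highest in both conditions. Timp3, an inhibitor that binds the matrix, had 222, 219 and 301 in DMSO and 339.6, 253 and 493 in PhenDC3 (0.55 ± 0.25, adjusted p = 0.110, and 0.0326 without PhenDC3 replicate 2). Timp1 had a log2 fold change of -0.15 ± 0.17 (adjusted p = 0.516). Among 26 other tested proteases and inhibitors, 8 rose and 3 fell, beside 18.0% and 18.7% over all genes tested. The rises included the proteases Adamts7 (1.64 ± 0.22, adjusted p = 0.00079) and Adamts9 (1.28 ± 0.26, adjusted p = 0.00498). Among the falls, the membrane-anchored Mmp25 had 94.1, 66.3 and 141 in DMSO against 29.2, 25.6 and 35.2 in PhenDC3 (-1.74 ± 0.32, adjusted p = 0.00313).

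Over all 8 lists of other matrix and integrin genes, 142 of 198 genes were tested, of which 45 rose and 32 fell. The shares over all genes tested were 18.0% and 18.7%. Of the 45 rises, 10 were genes without all DMSO libraries over the filter's level, and of the 32 falls, 6 were genes without all PhenDC3 libraries over it. The median log2 fold change of the 142 genes was 0.24, beside 0.0096 over all genes tested. These lists, like the 38 genes, were drawn up with results of these data known.

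Promoters were next examined for replication origins, a readout that did not enter the choice of the genes. An SNS-seq peak marks a site where short nascent strands were enriched over the RNase-treated library of its condition. A gene was counted when a peak overlapped the 2 kb upstream of a RefSeq start site. Of the 38 genes, 23, 22 and 9 had such a peak in DMSO replicates 1 to 3, and 20 and 12 in PhenDC3 replicates 1 and 2. Over 13949 tested genes with an annotated start site, the shares in the same lists were 52.9%, 50.9%, 23.5%, 41.4% and 27.6%. DMSO replicate 3 stood apart from the other 2 DMSO lists both in these genes and in all genes. The mean of PhenDC3 less that of DMSO was -2.0 genes (exact permutation test over the 5 lists, two-sided, p = 0.80, where the smallest p that the 10 splits allow is 0.10). Without DMSO replicate 3 the difference was -6.5 genes, and with 2 kb on both sides of the start site it was 2.0 genes.

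In 8 genes at least 2 DMSO lists and no PhenDC3 list had a promoter peak, namely Col4a1, Fbln1, Fbn1, Hspg2, Itga5, Itga6, Itgav and Itgb5. This pattern was found in 12.8% of the tested genes. None of the 8 had a peak in DMSO replicate 3. The promoter of Col4a1 lies inside Col4a2, and the peaks in all 5 lists that count for Col4a2 lie inside Col4a1. In expression, 4 of the 8 rose (Col4a1, Fbn1, Hspg2 and Itgav), Fbln1 and Itga5 fell, and Itga6 and Itgb5 did not pass the test. Over all genes tested 18.0% rose and 18.7% fell, and a link of expression to these peaks was not tested. The highest fold enrichment among the 8 genes, 17.0 for Fbn1 in DMSO replicate 1, came from a peak that only touched the edge of the window. It belongs to an origin of all 5 lists (chr2:125505707-125506442), whose strongest summit lay 249 bases inside the gene. The upstream Fbn1 origin seen only in DMSO replicates 1 and 2 was 7.49-fold and 6.05-fold enriched. For Hspg2, too, the strongest peak, 10.0-fold in DMSO replicate 1, belongs to an origin of all 5 lists with its summit inside the gene. Another 6 genes, Col5a2, Loxl2, Mmp2, Nid2, Spp1 and Timp1, had no promoter peak in any list, beside 31.2% of the tested genes.

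**Figure D4:**
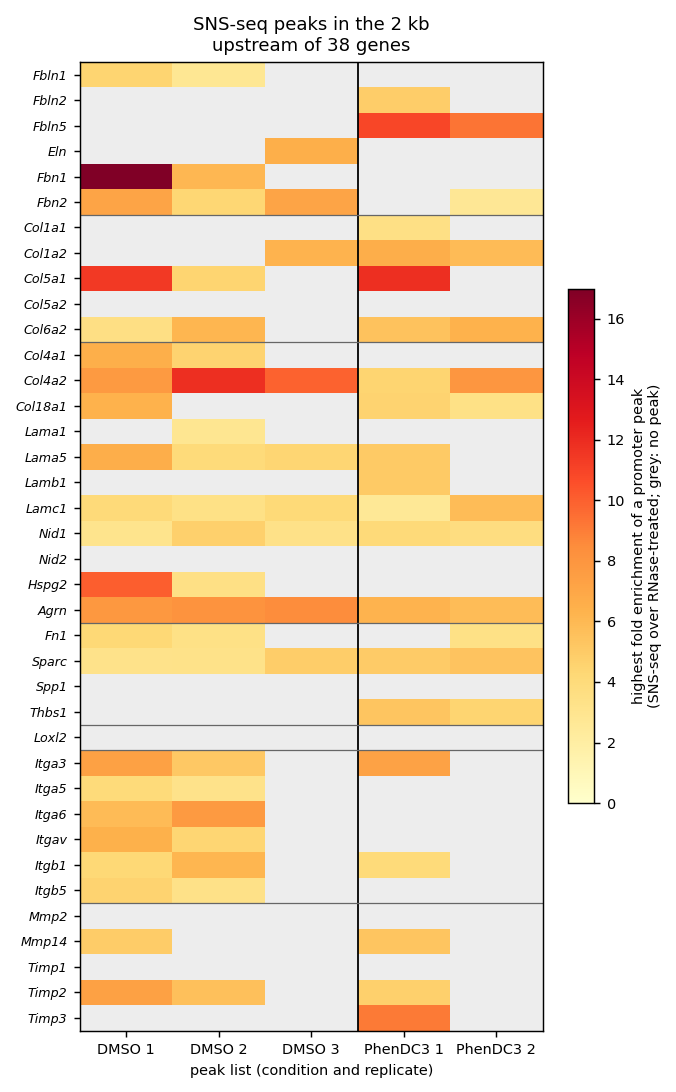
Highest fold enrichment of an SNS-seq peak in the 2 kb upstream of each of the 38 genes (rows, by role) in the 5 peak lists (columns, 3 DMSO and 2 PhenDC3), with grey for no peak. DMSO replicate 3 has 9 filled rows against 23 and 22 in the other DMSO lists, and Fbln5 and Thbs1 are filled only in the PhenDC3 columns.

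Only Fbln5 and Thbs1 had promoter peaks in both PhenDC3 lists and none in any DMSO list, beside 1.66% of the tested genes. Agrn, with other promoter peaks in all 5 lists, also had an upstream origin found in both PhenDC3 lists and no DMSO list. That origin (chr4:156199279-156199414) was 4.79-fold and 5.01-fold enriched. The Fbln5 peak was 10.9-fold enriched in PhenDC3 replicate 1 (chr12:101821100-101821393) and 9.31-fold in replicate 2 (chr12:101821079-101821200). It is intergenic, and its summits lie at -2061 and -2023 bases from the start site. They are therefore just outside the 2 kb window, which the peaks themselves overlap. The G-rich sequence printed above ends inside it, and its predicted G4 lie at -1887 to -1849 and -1953 to -1929, on the gene side of the summits. A weaker peak, 3.07-fold enriched, had its summit at -307 in PhenDC3 replicate 1 alone.

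Within the gene, an origin in intron 4 of 10 was called in all 5 lists, with fold enrichments of 3.80, 4.91 and 6.18 in DMSO and 4.56 and 7.67 in PhenDC3. Another 4 peaks inside Fbln5 were called in PhenDC3 replicate 1 alone, and 1 in DMSO replicate 1 alone. PhenDC3 replicate 1 had the most peaks of the 5 lists, 144103 in all against 79377 to 120882 in the others.

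**Figure D5:**
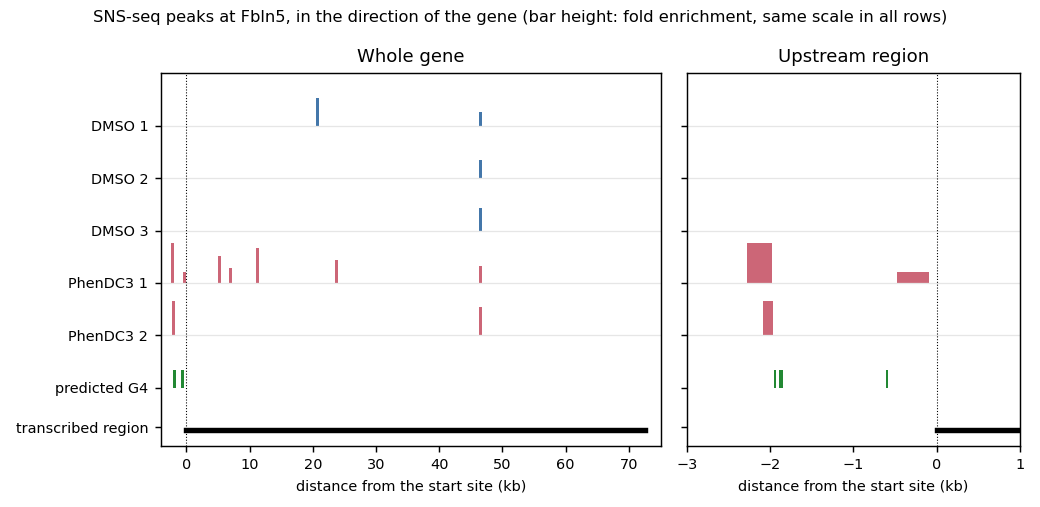
SNS-seq peaks in each list along Fbln5 by distance from its start site in kb, in the direction of the gene, with predicted G4 in green and the transcribed region as a black line; bar heights give the fold enrichment. The upstream peak is present in both PhenDC3 lists, 10.9-fold and 9.31-fold enriched, and in none of the 3 DMSO lists, while the intron 4 origin is present in all 5.

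At Thbs1 the peaks were 5.34-fold and 4.45-fold enriched, at chr2:118111323-118111813 in PhenDC3 replicate 1 and chr2:118111415-118111715 in replicate 2. Their summits lay at -155 and -402 bases from the start site. The printed G4 stretch reaches into the end of the first of them. The expression of Thbs1 did not pass the test (adjusted p = 0.124). Thbs1 was 1 of 8 genes of the set added by a replicate block, a pairing that is not sure.

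All origins in the 38 genes and their promoters were also put into classes by presence, where an origin needed at least 2 DMSO lists or both PhenDC3 lists. An origin was called common when found in at least 2 DMSO lists and both PhenDC3 lists, new when found in both PhenDC3 lists and no DMSO list, and suppressed when found in at least 2 DMSO lists and no PhenDC3 list. Of 226 origins, 86 (38.1%) were common, 30 (13.3%) new, 41 (18.1%) suppressed and 69 (30.5%) of other patterns. Over all 101678 origins the shares were 32.9%, 18.3%, 18.4% and 30.4%. That set also holds origins outside genes and promoters, so it is not a matched background. The authors' classes named new and suppressed also used fold changes, so they are not the same as these. Of the 30 new origins, 25 lay in introns, 2 in exons and 3 upstream of a gene. Examples in introns were found in intron 58 of 65 of Fbn1, at 10.6-fold and 10.1-fold in the 2 PhenDC3 lists, and in intron 1 of 17 of Fbln2, at 9.06-fold and 3.56-fold.

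G4 were predicted in promoters with G4Hunter, which scores a window of 25 bases by its runs of G less its runs of C. With a threshold of 2 on the score, on either strand, 32 of the 38 genes had a G4 in the 2 kb upstream of a start site, 84.2% (95% Wilson interval 69.6 to 92.6). The share over the tested genes was 61.1%. The 38 genes are a chosen list and no random sample, so the interval does not test this difference. Genes with several start sites had more sequence searched, in the 38 genes as in all tested genes. With a threshold of 1.5, added after seeing the data, the shares were 97.4% and 89.0%. The 6 genes with no predicted G4 at the threshold of 2 were Fbln2, Itgav, Nid1, Nid2, Spp1 and Timp3. Of these, Fbln2, Itgav, Nid1 and Spp1 rose in PhenDC3, beside 13 of the 37 genes other than Fbln5 and 18.0% over all genes tested. A link between predicted G4 and expression was not tested.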

How the data were processed

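RNA-seq (3 DMSO and 3 PhenDC3 libraries) and SNS-seq (3 DMSO and 2 PhenDC3 peak lists) were analysed from the deposited files. The RNase-treated libraries, 1 for each condition, served the authors' peak calling and were not analysed here. The groups and replicate numbers come from the titles of the samples.

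For RNA-seq, the authors prepared stranded mRNA libraries, mapped reads with TopHat2 2.1.1 and Bowtie2 2.2.9 and counted them on genes with HTSeq 0.6.1p1. The deposited counts are raw, whole numbers per gene. The annotation and strand setting of the counting are not given in the sources used here. For SNS-seq, the authors mapped reads to mm10 and called peaks with MACS2 2.1.0 in each replicate. Peaks outside SICER regions were removed by them. For each peak the deposited lists hold a ratio, the fold enrichment against the RNase-treated library, and a −log10 p, but no read counts, so the depth of SNS-seq is unknown. A table of the authors' own comparison (fold changes and p-values) and a table of normalized pseudo-counts were not used.

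Counts were fitted with edgeR 4.0.16 (relative log expression scaling, filterByExpr, robust quasi-likelihood test of 3 against 3, Benjamini-Hochberg adjustment over all 13972 genes tested). The fit was tested on simulated data. Each SE, also in the figure of fold changes, is the absolute log2 fold change divided by the square root of the test's F value. Normalized counts are counts divided by size factors with a mean of 1. RPKM values were computed from the counts with RefSeq exon lengths of GRCm38.p6. Nothing in the labels says that RNA-seq replicates came from separate cultures, so p-values measure the spread between these libraries. Promoters were the 2 kb upstream of RefSeq start sites, and a peak counted with an overlap of at least 1 base. All 38 genes were matched to RefSeq by Entrez number.

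The 38 genes, the other gene lists, the marker lists and the alternatives were chosen with earlier results of these data known. The genes named are Fbln5, every gene of the set past an adjusted p of 0.05, the 5 with the highest DMSO level per length and the 5 with the largest log2 fold change. From the other lists they are the 10 called genes with the largest log2 fold changes among those whose CPM averaged 1 or more and whose conditions did not overlap. For promoters they are the genes with a peak in every list and those whose peaks separate the conditions. Other genes were named after their values were seen. The alternatives were TMM scaling, no filter on low counts, DESeq2 1.42.0, a replicate block, each library or list left out, and for promoters 2 kb on both sides, the stronger part of each list, equal numbers of peaks and the summit in the window.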

Additional observations from a re-analysis of the deposited data

How the results depend on the processing

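Of the 37 genes other than Fbln5, 18 passed the threshold, and 18 also did with TMM scaling and without the filter on low counts, 19 by DESeq2, and 14 to 20 with 1 library left out. Over all genes the count was 5135 and ranged from 3332 (without PhenDC3 replicate 1) to 5416 with 1 library left out, so that the background shares of called genes move with that library. The other matrix and integrin genes had 77 calls, and 58 to 74 with 1 library left out. No called gene of the set changed direction under any alternative to the expression test. The cause of the lost calls was not tested.

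Replicates of the conditions share numbers in the labels, and the order of the library names puts same-numbered replicates side by side. The deviations of same-numbered libraries from their condition means correlated at 0.0904, 0.544 and 0.405, which did not meet the level of 0.1 in every pair, so the numbers were not taken to pair the libraries. Every library did correlate best with its own number, as a hint from the data. With a replicate block 26 of the 37 genes passed (20 higher, 6 lower), beside 7489 of all genes and 88 of the other matrix and integrin genes. The genes added were Col1a2, Col5a1, Lamc1, Agrn, Fn1, Thbs1, Loxl2 and Timp3.

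The difference in genes with a promoter peak, -2.0 of 38, turned to 2.0 with 2 kb on both sides of the start site, and ranged from -6.5 to 2.0 with 1 list left out. The stronger part of each list gave -2.83, equal numbers of the strongest peaks -5.67 and the summit in the window -2.67. The causes were not tested. The exact p was between 0.40 and 0.80 wherever all 5 lists were used, and the smallest that the 10 splits allow is 0.10. Genes with few counts (Fbln5, Eln, Col1a2, Col6a2) have wide errors at this depth.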

Other observations

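Other markers of the culture changed beside the matrix genes. The pluripotency factor Nanog had 12522, 12082 and 11893 normalized counts in DMSO and 30170.4, 26653 and 28266 in PhenDC3 (log2 fold change 1.22 ± 0.10, SE, edgeR adjusted p = 0.000101), while Pou5f1 (-0.45 ± 0.11, adjusted p = 0.0113) and Utf1 (-2.02 ± 0.21, adjusted p = 0.000234) fell. Vim, coding for the intermediate filament protein vimentin, had 3731, 4111 and 4797 in DMSO and 1605, 1439 and 1731 in PhenDC3 (-1.40 ± 0.13, adjusted p = 0.000141). The epithelial keratin gene Krt8 had 638, 797 and 714 in DMSO and 1349.6, 1664 and 2025 in PhenDC3 (1.23 ± 0.16, adjusted p = 0.000709). Of the 5 tested trophectoderm genes, 3 rose (Krt8, Krt18 and Tfap2c), beside 18.0% over all genes tested. Eomes of the same list was lower in PhenDC3, with 148, 116 and 137 normalized counts in DMSO and 88.4, 114 and 87.0 in PhenDC3. Its log2 fold change of -0.47 ± 0.20 did not pass the test (adjusted p = 0.0908). Cdx2, which defines that lineage, had 4.41 to 11.1 normalized counts in DMSO and 6.19 to 11.7 in PhenDC3.

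Replicate 3 was the highest library of both conditions for Thbs1, Col1a2 and Timp2. The smooth muscle actin gene Acta2 followed the same order, with 11.1, 16.3 and 125 normalized counts in DMSO and 78.7, 65.0 and 258 in PhenDC3 (1.42 ± 0.86, adjusted p = 0.227). The summed endoderm markers were instead lowest in replicate 3 of both conditions, at 1456 and 2966 normalized counts, with Foxa2 and Thbd as exceptions that were highest there.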
